A study of Mus musculus with 6 samples.

Results

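The ubiquitin ligase genes of muscle atrophy and the FoxO transcription factor genes were examined in gastrocnemius/plantaris (GP) muscle, a fast hindlimb muscle group, by bulk RNA-Seq. The set comprised 10 genes chosen by symbol: Trim63, Trim54, Trim55 and Trim32, which encode RING-type ligases, Fbxo32, Fbxo30 and Fbxo21, which encode F-box subunits of ligases, and Foxo1, Foxo3 and Foxo4. All 10 were found among the 24421 gene symbols of the count tables and had counts in every library, from 487 (Fbxo30) to 33252 (Fbxo32), and all passed the filter on low counts. Libraries came from 3 mice labelled Ctrl (Net39 fl/fl, Cre negative) and 3 labelled cKO (HSACreERT2; Net39 fl/fl), of 5 months of age and 3 months post-tamoxifen, on the B6C3F1 background. Both groups therefore carried the floxed allele and both received tamoxifen. In the cKO line, the human skeletal actin promoter drives the inducible Cre in muscle fibres and not in satellite cells, and the loxP sites flank the first exon of Net39.

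A muscle loses mass when protein breakdown exceeds synthesis, and much of that breakdown runs through the ubiquitin-proteasome system, in which an E1 enzyme activates ubiquitin, an E2 enzyme carries it and an E3 ligase chooses the protein to be tagged. MuRF1 (Trim63) and atrogin-1 (Fbxo32) are the E3 ligases whose transcripts are best known to rise in wasting muscle. FoxO proteins activate both genes when they are in the nucleus, while insulin and IGF1 signaling through AKT phosphorylates FoxO proteins and keeps them in the cytoplasm. FoxO activity is thus set largely after translation, and transcript levels of the FoxO genes do not measure it.

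Net39, the targeted gene, is listed as Ppapdc3 and contradicted the labels. It had 217 to 321 counts in the Ctrl-labelled libraries and 4340 to 6080 counts in the cKO-labelled ones, so the cKO-labelled libraries held the high values. The libraries are accordingly named by their labels alone, and each direction below follows the labels. Total counts were 33860001 to 38201728 in the Ctrl-labelled libraries and 39191239 to 48839910 in the cKO-labelled ones. Levels are CPM, counts scaled to a common library size with edgeR's TMM factors, and differences are log2 fold changes of labelled cKO over labelled Ctrl, so a positive value means a higher level in the cKO-labelled libraries. A gene is said to rise or fall in the cKO-labelled libraries where the adjusted p of edgeR's quasi-likelihood test was under 0.05 over all 14180 genes tested. The exact permutation test of a single gene cannot go below 0.1 with 3 mice against 3.

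Markers of muscle fibres in general summed to 76359 to 96855 CPM in the Ctrl-labelled libraries and 120619 to 163556 CPM in the cKO-labelled ones. That list of 6 holds Myh4, a type IIb marker, and 2 of its genes rose while 2 had lower values. Fibre-type markers moved with the labelled groups. The 6 markers of fast type IIb fibres, among them Myh4 and Pvalb, summed to 34737 to 65051 CPM in the Ctrl-labelled libraries and to 101609 to 136592 CPM in the cKO-labelled ones, and 6 of 6 rose. The 8 slow-fibre markers, among them Myh7 and Tnnt1, summed to 8611 to 14108 CPM in the Ctrl-labelled libraries and to 401 to 3365 CPM in the cKO-labelled ones, where 8 of 8 had lower values and 4 fell. The 6 immune markers tested were also lower in the cKO-labelled libraries, with sums of 55.4 to 82.4 CPM against 125 to 144 CPM, and 4 of them fell. Sums of the 5 fibro-adipogenic markers (984 to 1178 CPM labelled Ctrl, 650 to 1199 CPM labelled cKO, of which 2 fell) and the 3 endothelial markers (279 to 297 CPM labelled Ctrl, 258 to 286 CPM labelled cKO) overlapped. Sums of the 3 Schwann cell markers were lower in the cKO-labelled libraries without overlap (54.2 to 86.0 CPM labelled Ctrl, 30.0 to 52.5 CPM labelled cKO). The cardiac sum, nearly all Myh6, was 177 to 660 CPM labelled Ctrl and 0.591 to 71.4 CPM labelled cKO, and Myh6 did not pass (edgeR adjusted p = 0.103). Of all 45 markers listed, 0 were at 0 counts in any library, and Cd3e, Nppa and Tnni3 stayed under 20 counts in each. In whole-muscle RNA, fewer cells or fibres of a type and less RNA per cell cannot be told apart, and the part of fibre type in the differences given here was not tested.

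**Figure D1:**
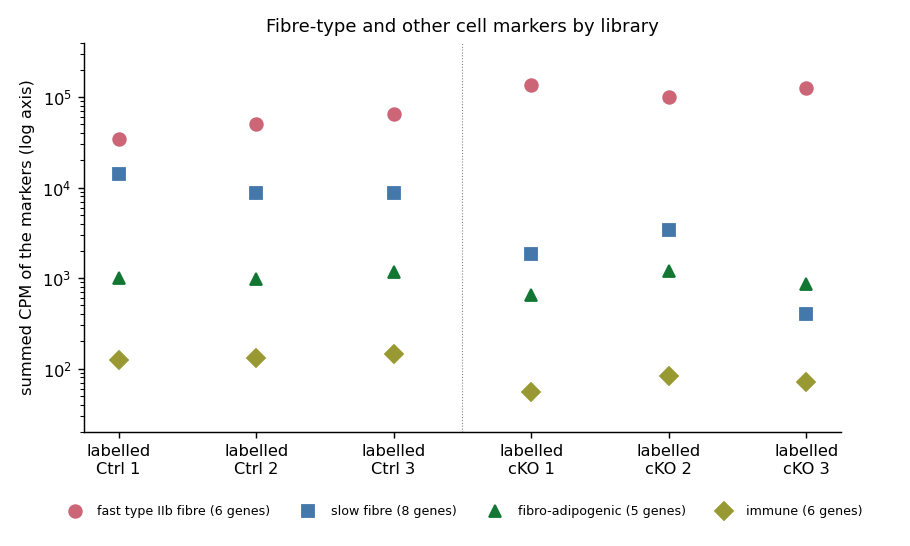
Summed CPM (log axis) of markers of fast type IIb fibres, slow fibres, fibro-adipogenic cells and immune cells, with 1 point for each library. Type IIb sums were 34737 to 65051 CPM in the Ctrl-labelled libraries and 101609 to 136592 CPM in the cKO-labelled ones, slow-fibre and immune sums went the other way without overlap, and fibro-adipogenic sums overlapped.

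Of the 10 genes, 3 rose in the cKO-labelled libraries (Trim63, Trim54 and Foxo4) and 0 fell in edgeR's test. Among all genes tested, 12.6% rose and 11.8% fell. At an unadjusted p under 0.05 in edgeR, 5 were higher in the cKO-labelled libraries and 1 (Fbxo30) was lower, against 19.2% and 19.6% of all genes. DESeq2 called 4 higher and 1 lower, against 14.1% and 12.3% of the 14881 genes to which it gave an adjusted p. With the study's further limit of a fold change over 2, 1 gene (Trim63) was higher in the cKO-labelled libraries and 0 in the Ctrl-labelled ones, where the shares of all genes were 2.13% and 3.92%. For 7 of the 10 genes the labelled groups had no overlapping values, against 43.9% of all genes tested. The count of 3 rising genes was 1 without library Ctrl 1 or cKO 3, and 2 without Ctrl 2 or cKO 1. Of all genes, 5.33%, 6.06%, 6.2% and 5.34% rose without Ctrl 1, Ctrl 2, cKO 1 and cKO 3, against 12.6% with all libraries. The count of 0 falling genes was 1 without cKO 2, where 12.5% of all genes fell. Over a fold change of 2, 0 of the 10 genes rose without Ctrl 1, Ctrl 2, cKO 1 or cKO 3. Over all genes, 172, 220, 208 and 207 did, against 302 with all libraries. Scaling by total counts instead, 1 gene rose (Foxo4, by less than 2-fold) and 1 fell (Fbxo30), where 4.75% and 28.7% of all genes did. That scaling moves the all-gene median of the log2 fold change from -0.02 to -0.27. A change of scaling shifts every gene by nearly the same amount. Values relative to that median were therefore bound to be close, such as 1.07 and 1.05 for Trim63 and 0.81 and 0.81 for Foxo4. They do not support either scaling.

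**Figure D2:**
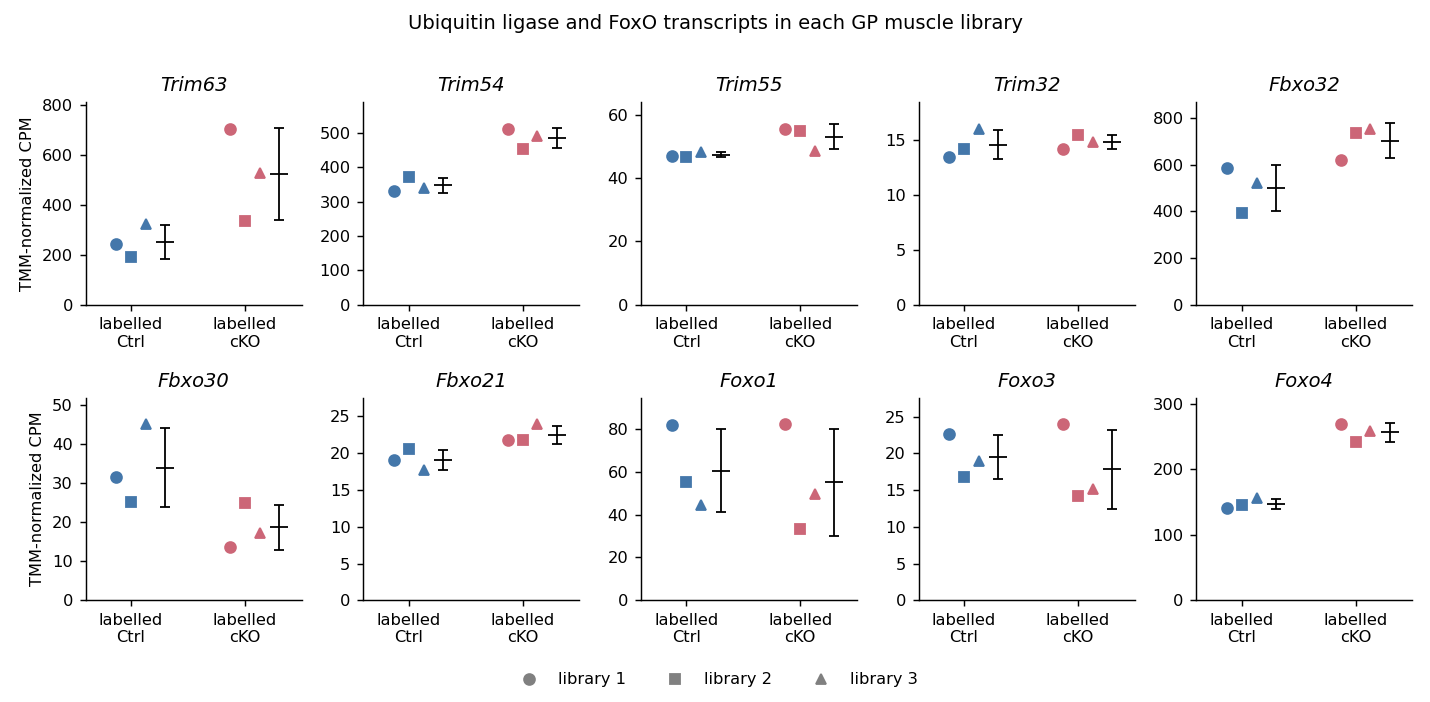
TMM-normalized CPM of the 10 genes, with 1 panel for each gene, 1 symbol shape for each mouse number, and the mean and SD of 3 libraries beside the points. Foxo4 and Trim54 were tightly grouped and separate between the labelled groups, Trim63 was spread widely among the cKO-labelled libraries, and Foxo1 and Foxo3 overlapped.

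Trim63 encodes MuRF1, a ligase of the sarcomere that binds titin and tags thick-filament proteins. It lies on chromosome 4 of GRCm38 (mm10), from 134315120 to 134329629 on the plus strand, and none of its exon bases lies in another GENCODE M21 gene. Its promoter is shown because FoxO proteins and the glucocorticoid receptor are known to act there in wasting muscle. Of the 10 genes, 7 matched the RefSeq promoter table for GRCm38, and the 250 bases before the start were searched on both strands. The FoxO element TTGTTTAC, in capitals below, was found in Trim63 and in none of the other 6 (Fbxo30, Fbxo21, Trim54, Trim32, Foxo1 and Foxo3), and 1.07% of all 32851 promoter entries held it. It spans 195 to 188 bases before the RefSeq start. Its first base is also the last base of the glucocorticoid receptor motif TGTTCT, which starts 200 bases before the start and which 16.1% of the promoter entries held. Trim54, the other RING ligase gene that rose, is shown for comparison. It held TGTTCT on the other strand only, where the printed strand reads agaaca from 222 to 217 bases before the start, and no TTGTTTAC. The upstream windows are chr4:134314870-134315119 for Trim63 and chr5:31116362-31116611 for Trim54, both on the plus strand. A match describes the letters and not a bound site.
Trim63: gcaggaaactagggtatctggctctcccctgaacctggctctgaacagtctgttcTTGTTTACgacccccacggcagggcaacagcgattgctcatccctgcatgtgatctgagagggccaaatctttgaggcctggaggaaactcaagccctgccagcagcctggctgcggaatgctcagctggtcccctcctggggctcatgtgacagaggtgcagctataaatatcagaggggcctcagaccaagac
Trim54: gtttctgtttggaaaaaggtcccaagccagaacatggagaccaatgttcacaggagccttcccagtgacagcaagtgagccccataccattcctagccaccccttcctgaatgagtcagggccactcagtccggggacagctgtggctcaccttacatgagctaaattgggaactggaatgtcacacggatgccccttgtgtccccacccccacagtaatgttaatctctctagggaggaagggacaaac

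Trim63 had 242, 190 and 325 CPM in the Ctrl-labelled libraries (mice 1, 2 and 3) and 706, 336 and 526 CPM in the cKO-labelled ones. The lowest library labelled cKO (336 CPM) lay just above the highest labelled Ctrl (325 CPM). The mean was 252 ± 67.9 CPM (SD, n = 3) in the Ctrl-labelled libraries and 523 ± 185 CPM (SD, n = 3) in the cKO-labelled ones. Trim63 rose by a log2 fold change of 1.05 (standard error 0.29, edgeR adjusted p = 0.0399). This call was lost without library Ctrl 1 (adjusted p = 0.119), Ctrl 2 (0.116), cKO 1 (0.115) or cKO 3 (0.101), in edgeR fits whose log2 fold changes were 0.76 to 1.03. It was also lost in a robust fit (adjusted p = 0.0532, edgeR) and with total counts (0.0541).

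Trim54 encodes MuRF3, a ligase that also binds microtubules and the Z-disc. It lies on chromosome 5 (31116712 to 31137630), and 382 of its 1436 exon bases (26.6%) overlap the gene Gm15469 on the other strand. Since the use of strand in counting is not given in the sources used here, reads of these genes cannot be told apart over that stretch. Trim54 had 330, 372 and 340 CPM in the Ctrl-labelled libraries (mice 1, 2 and 3) and 513, 454 and 490 CPM in the cKO-labelled ones. The groups were well apart, and the libraries within each differed by only 1.13-fold. Trim54 rose by a log2 fold change of 0.48 (standard error 0.09, edgeR adjusted p = 0.0122), a fold of 1.40. With total counts the adjusted p was 0.0676 (log2 fold change 0.23), and without library Ctrl 1 or cKO 3 it was 0.0501 and 0.0532.

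Trim55 encodes MuRF2, which links titin to signaling toward the nucleus and lies on chromosome 3 (19644474 to 19692421). It had 47.0, 46.8 and 48.2 CPM in the Ctrl-labelled libraries (mice 1, 2 and 3) and 55.7, 54.9 and 48.5 CPM in the cKO-labelled ones. All values labelled cKO lay above all values labelled Ctrl, with cKO 3 (48.5 CPM) just over the highest labelled Ctrl (48.2 CPM). The log2 fold change of 0.16 did not pass (95% interval -0.02 to 0.34, edgeR adjusted p = 0.162), and it was -0.09 with total counts.

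Trim32 encodes a ligase mutated in a human limb-girdle muscular dystrophy and lies on chromosome 4 (65604986 to 65616238). It had 13.5, 14.2 and 16.1 CPM in the Ctrl-labelled libraries (mice 1, 2 and 3) and 14.2, 15.5 and 14.9 CPM in the cKO-labelled ones. The groups overlapped, and the 95% interval of its log2 fold change, -0.20 to 0.25 around 0.03, leaves room only for small differences in either direction (edgeR adjusted p = 0.872).

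F-box proteins bring substrates to a cullin-RING scaffold, and none of the 3 F-box genes passed edgeR's test. Fbxo32, on chromosome 15 (58175879 to 58214932, minus strand), encodes atrogin-1, whose known substrates include MyoD and the translation factor eIF3f. It had 585, 393 and 522 CPM in the Ctrl-labelled libraries (mice 1, 2 and 3) and 620, 736 and 756 CPM in the cKO-labelled ones. All values labelled cKO lay above all values labelled Ctrl, by a margin of 620 over 585 CPM at the nearest. The log2 fold change of 0.49 did not pass edgeR's test (standard error 0.16, 95% interval 0.11 to 0.87, adjusted p = 0.0645), and it passed DESeq2's Wald test (adjusted p = 0.0138). It was 0.24 with total counts (edgeR adjusted p = 0.317), and 0.35 to 0.62 with single libraries left out, none of which passed. Of its exon bases, 186 (2.67%) overlap Gm15943 on the other strand.

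Fbxo30 (chromosome 10, 11281330 to 11298052) encodes MUSA1, a ligase subunit that FoxO and BMP signaling are known to control. It was the member with the largest difference toward the Ctrl-labelled libraries, with 31.5, 25.1 and 45.0 CPM in Ctrl 1, 2 and 3 against 13.7, 25.0 and 17.2 CPM in cKO 1, 2 and 3. The library labelled cKO 2 nearly reached the lowest library labelled Ctrl (25.0 and 25.1 CPM). The log2 fold change was -0.86 (standard error 0.27, 95% interval -1.50 to -0.22) and did not pass (edgeR adjusted p = 0.0574). It passed without library cKO 2 (log2 fold change -1.14, adjusted p = 0.0237, edgeR), with total counts (-1.10, adjusted p = 0.0296, edgeR) and in DESeq2's Wald test (-0.85, adjusted p = 0.00821).

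Fbxo21 (chromosome 5, 117976730 to 118010201) encodes the ligase subunit called SMART in atrophy studies. It had 19.1, 20.5 and 17.8 CPM in the Ctrl-labelled libraries (mice 1, 2 and 3) and 21.8, 21.8 and 23.9 CPM in the cKO-labelled ones. The difference was small, with a log2 fold change of 0.24 (95% interval 0.03 to 0.45, edgeR adjusted p = 0.092), and it vanished with total counts (-0.02).

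Of the FoxO genes, 1 rose and the others overlapped between the groups. Foxo4, on the X chromosome (101254528 to 101260873), had 141, 145 and 156 CPM in the Ctrl-labelled libraries (mice 1, 2 and 3) and 269, 241 and 259 CPM in the cKO-labelled ones. The groups lay far apart relative to their spread, with means of 147 ± 7.86 CPM and 256 ± 14.1 CPM (SD, n = 3 each). Foxo4 rose by a log2 fold change of 0.80 (standard error 0.08, edgeR adjusted p = 0.00238), a fold of 1.74, and stood at rank 140 of the 14180 genes by p. It passed in each of the 13 alternatives, with log2 fold changes of 0.54 to 0.84 and adjusted p of at most 0.0174.

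Foxo1, the FoxO member most often tied to fasting, lies on chromosome 3 (52268336 to 52353221). It had 82.0, 55.0 and 44.5 CPM in the Ctrl-labelled libraries (mice 1, 2 and 3) and 82.2, 33.2 and 49.7 CPM in the cKO-labelled ones. Mice within a group differed more than the groups did, by 1.84-fold among the Ctrl-labelled libraries and 2.47-fold among the cKO-labelled ones, while the mean of the cKO-labelled group was 0.910 of that of the other. The log2 fold change of -0.14 did not pass (edgeR adjusted p = 0.80), and its 95% interval of -0.95 to 0.68 still allows changes of substantial size either way. Of its exon bases, 674 (7.78%) overlap Gm20402 on the other strand.

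Foxo3, which induces Fbxo32 and autophagy genes in muscle, lies on chromosome 10 (42181841 to 42276755, minus strand). It had 22.7, 16.7 and 19.0 CPM in the Ctrl-labelled libraries (mice 1, 2 and 3) and 24.0, 14.2 and 15.2 CPM in the cKO-labelled ones. As for Foxo1, the highest value of each group was that of mouse 1, and the groups overlapped (log2 fold change -0.13, 95% interval -0.63 to 0.37, edgeR adjusted p = 0.691). Its log2 fold change was -0.40 with total counts, -0.42 without library cKO 1 and -0.0049 without Ctrl 1, and did not pass in any of these.

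**Figure D3:**
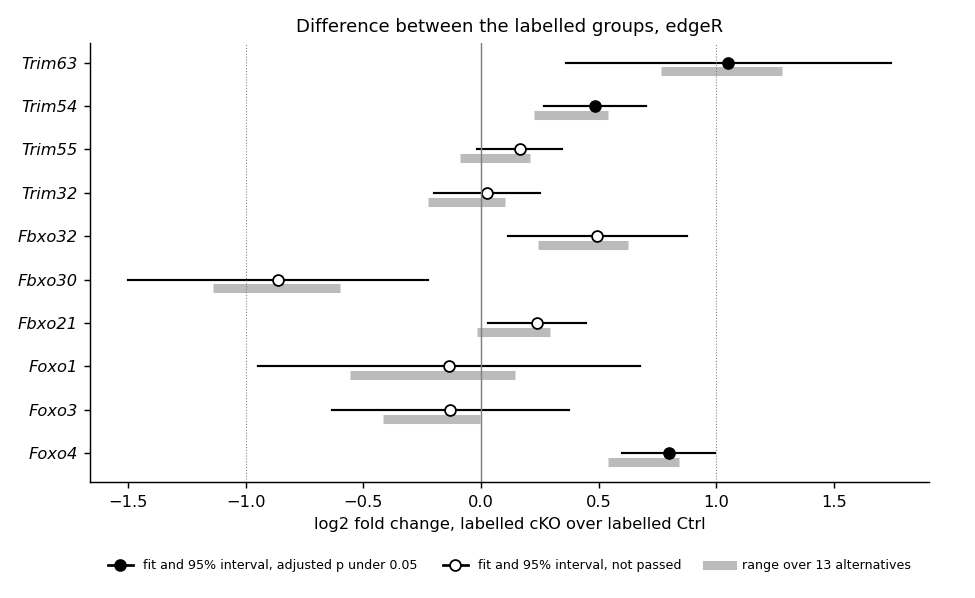
Log2 fold change of labelled cKO over labelled Ctrl for the 10 genes, with the 95% interval of edgeR's fit (black), filled points for an adjusted p under 0.05, and the range over 13 alternatives (grey). Foxo4 kept a range of 0.54 to 0.84, while the ranges of Trim55, Trim32, Fbxo21 and Foxo1 crossed 0 and the dotted lines mark a fold change of 2.

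Per kilobase of exon, the levels spanned a wide range. In the Ctrl-labelled libraries, Trim54 was the most abundant (242 ± 15.5 CPM per kb, SD, n = 3), followed by Trim63 (88.8 ± 23.9), Fbxo32 (71.7 ± 14.0), Foxo4 (42.3 ± 2.26) and Trim55 (17.8 ± 0.298). Foxo1 (6.98 ± 2.23), Fbxo30 (6.52 ± 1.96), Trim32 (4.51 ± 0.413), Fbxo21 (3.45 ± 0.247) and Foxo3 (2.57 ± 0.395) followed. The values of Trim63 and Fbxo32 overlapped among those libraries, as did those of Foxo1 and Fbxo30 and those of Fbxo30 and Trim32. Trim63 was higher than Fbxo32 within each of them. In the cKO-labelled libraries, Trim63 (184 ± 65.1 CPM per kb, SD, n = 3) lay above Fbxo32 (101 ± 10.5) without overlap, and Trim54 stayed first (338 ± 20.7). The order rested on the length used. Per kilobase of coding sequence, the mean of Fbxo32 came first in both groups (470 and 661 CPM per kb). The mean of Trim32 came last in both (7.42 and 7.55). The mean of Foxo1 lay above that of Trim55 in the Ctrl-labelled libraries (30.9 against 28.9). Values of Foxo1 and Trim55 overlapped there, and their order differed between libraries. In the cKO-labelled libraries, values of Fbxo32 and Trim63 overlapped, as did those of Trim32 with Foxo3 and Fbxo30.

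The MuRF genes together summed to 332 to 369 CPM per kb of exon in the Ctrl-labelled libraries and to 455 to 627 CPM per kb in the cKO-labelled ones. Trim63 made up 25.3% ± 5.75 (SD, n = 3) of that sum in the Ctrl-labelled libraries and 33.2% ± 6.87 in the cKO-labelled ones, with overlapping values (exact two-sided permutation test, p = 0.2). Per kilobase of coding sequence its mean share was 40.3% and 49.8%, and that of Trim54 was 54.7% and 46.8%. Trim55 made up 4.92% to 5.32% and 3.34% to 4.54%, without overlap (exact two-sided permutation test, p = 0.1). The FoxO genes summed to 50.2 to 53.0 CPM per kb in the Ctrl-labelled libraries and to 74.9 to 89.8 CPM per kb in the cKO-labelled ones. Foxo4 was the main FoxO transcript, at 76.5% to 85.4% of the sum in the Ctrl-labelled libraries and 85.9% to 92.4% in the cKO-labelled ones.

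**Figure D4:**
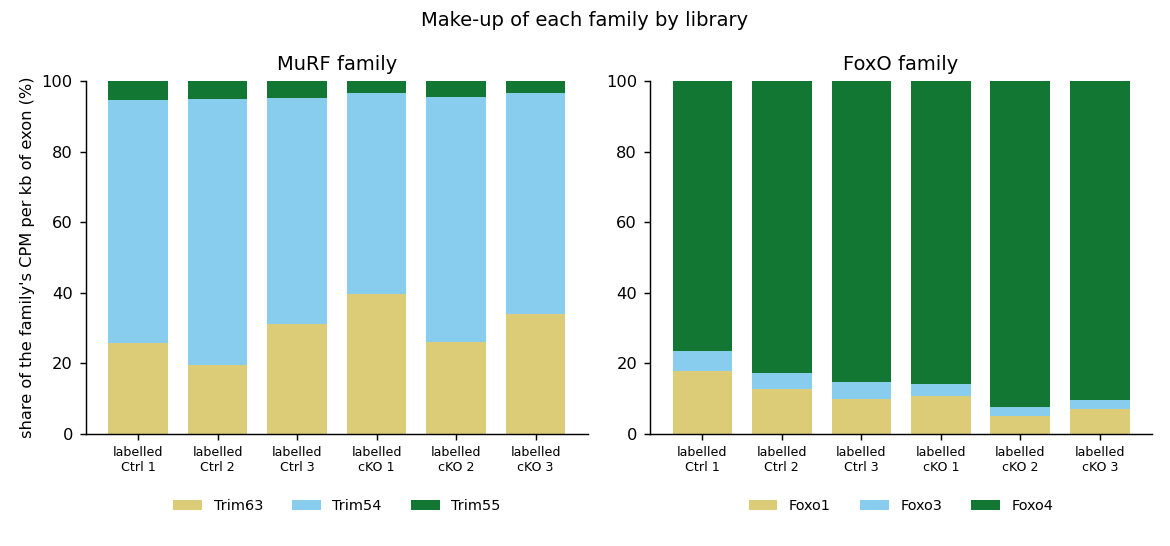
Share of each gene in the summed CPM per kb of exon of its family, for Trim63, Trim54 and Trim55 (left) and Foxo1, Foxo3 and Foxo4 (right), with 1 bar for each library. Foxo4 made up 76.5% to 92.4% of the FoxO sum in the 6 libraries, and the share of Trim63 among the MuRF genes overlapped between the labelled groups.

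Whether members of a family changed by different amounts was tested on the log2 ratio of their CPM within each library, which does not depend on the scaling. Of 7 ratios, those of Foxo4 to Foxo3 and of Trim54 to Trim55 did not overlap between the groups. The log2 ratio of Foxo4 to Foxo3 was 2.64, 3.11 and 3.04 in the Ctrl-labelled libraries (mice 1, 2 and 3) and 3.49, 4.08 and 4.09 in the cKO-labelled ones, a difference of 0.95. That of Trim54 to Trim55 was 2.81, 2.99 and 2.82 against 3.20, 3.05 and 3.34, a difference of 0.32. Both had the smallest p that the exact two-sided permutation test allows (p = 0.1, adjusted p = 0.28 over the 7 ratios). With 3 libraries against 3, this test could not bring them under 0.05. The log2 ratios of Trim63 to Trim54 and to Trim55 differed by 0.54 and 0.86, and that of Foxo1 to Foxo4 by -0.99, with values that overlapped between the groups (exact two-sided permutation test, p = 0.2 for each, adjusted p = 0.28). The 0.54 was 0.30 without library Ctrl 2 and 0.33 without cKO 1. The ratio of Trim63 to Fbxo32, the standard pair of atrophy markers, ranged from -1.28 to -0.68 in the Ctrl-labelled libraries and from -1.13 to 0.19 in the cKO-labelled ones. For Foxo1 to Foxo3 the difference was -0.03 (p = 0.7, exact two-sided permutation test), and the sign changed when single libraries were left out.

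The wider pathway was read from 5 lists with 111 genes tested, of which 24 (21.6%) rose and 17 (15.3%) fell in the cKO-labelled libraries, where 12.6% and 11.8% of all genes tested did. With total counts 15 (13.5%) rose and 32 (28.8%) fell, against 4.75% and 28.7% of all genes. The 24 became 14, 11, 13 and 11 without library Ctrl 1, Ctrl 2, cKO 1 and cKO 3, and the 17 became 11 without cKO 1. Calls over all genes dropped too, from 1786 rising genes to 766, 873, 896 and 772 without those libraries, and from 1668 falling genes to 893 without cKO 1. The median log2 fold change of the 10 genes was 0.20, against -0.02 for all genes tested.

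The genes that work with the ligases were those of the SCF scaffold, ubiquitin, E2 enzymes and deubiquitinases. Of 23 tested, 8 rose and 0 fell in edgeR's test, against 12.6% and 11.8% of all genes. At an unadjusted p under 0.05 in edgeR, 13 were higher and 0 lower, against 19.2% and 19.6% of all genes. DESeq2 called 10 and 0, against 14.1% and 12.3%. The median log2 fold change was 0.21. Cul3, a cullin scaffold, had 178 to 217 CPM in the Ctrl-labelled libraries and 319 to 351 CPM in the cKO-labelled ones (log2 fold change 0.79, adjusted p = 0.00368, edgeR). The E2 enzyme genes Ube2d1 (log2 fold change 0.91, adjusted p = 0.00647, edgeR), Ube2e1 (0.70, adjusted p = 0.0113) and Ube2g1 (0.65, adjusted p = 0.00373) rose too. Rbx1, the RING subunit of the cullin scaffold, rose by 0.30 (adjusted p = 0.0207, edgeR). Its partners Skp1a (0.27, adjusted p = 0.0369) and Cul1 (0.29, adjusted p = 0.0385), singled out after their values were seen, were also among the 8. The 8 became 4 without library Ctrl 1, Ctrl 2, cKO 1 or cKO 3, when 5.33%, 6.06%, 6.2% and 5.34% of all genes rose. With total counts 4 rose and 2 fell, against 4.75% and 28.7% of all genes.

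Of 18 other ubiquitin ligases described in muscle, 4 rose and 1 fell, where 12.6% and 11.8% of all genes did. The median log2 fold change was 0.15. Asb2, which directs filamin breakdown and restrains muscle mass, had 547 to 687 CPM in the Ctrl-labelled libraries and 1167 to 1381 CPM in the cKO-labelled ones (log2 fold change 1.06, adjusted p = 0.00325, edgeR). Wwp1 (0.62, adjusted p = 0.00502, edgeR) and Traf6 (0.31, adjusted p = 0.042) also rose. Trim72 (MG53), a membrane-repair protein of the TRIM family, fell from 555 ± 38.5 CPM to 284 ± 22.0 CPM (SD, n = 3 each, log2 fold change -0.97, adjusted p = 0.00222, edgeR). The 4 became 2 without library Ctrl 1, Ctrl 2 or cKO 1, when 5.33%, 6.06% and 6.2% of all genes rose. The 1 became 2 without Ctrl 3, when 10.6% of all genes fell. With total counts 2 rose and 5 fell, against 4.75% and 28.7% of all genes.

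Among genes described as FoxO targets, the counts depended on the test. Of 22 tested, 2 rose and 6 fell in the cKO-labelled libraries in edgeR's test, against 12.6% and 11.8% of all genes. With DESeq2 5 rose and 7 fell (14.1% and 12.3% of all genes). At an unadjusted p under 0.05 in edgeR, 6 were higher and 7 lower (19.2% and 19.6% of all genes). The median log2 fold change was -0.10. Gabarapl1, an autophagosome gene induced by Foxo3, had 252, 165 and 207 CPM in the Ctrl-labelled libraries (mice 1, 2 and 3) and 50.5, 71.5 and 48.2 CPM in the cKO-labelled ones (log2 fold change -1.87, standard error 0.21, adjusted p = 0.00272, edgeR). Cited2, a transcriptional coregulator, fell by 1.08 on the log2 scale (adjusted p = 0.00151, edgeR). The proteasome subunit gene Psmd11 fell by 0.50 (adjusted p = 0.0128, edgeR) and the lysosomal protease gene Ctsl fell by 0.37 (adjusted p = 0.0145). Ulk1, a kinase that starts autophagy, rose by 0.46 (adjusted p = 0.0106, edgeR). The 6 became 3 without library cKO 3, when 5.46% of all genes fell. The 2 became 1 without Ctrl 1, Ctrl 2 or cKO 1, 3 without Ctrl 3 and 0 without cKO 3. Of all genes, 5.33%, 6.06%, 6.2%, 11.8% and 5.34% rose without Ctrl 1, Ctrl 2, cKO 1, Ctrl 3 and cKO 3.

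Upstream regulators of FoxO and the ligases were split, with 5 of 29 rising and 6 falling (median log2 fold change -0.10). Of all genes, 12.6% rose and 11.8% fell. Mstn, which encodes the growth inhibitor myostatin, had 19.4, 28.3 and 44.1 CPM in the Ctrl-labelled libraries (mice 1, 2 and 3) and 137, 97.5 and 120 CPM in the cKO-labelled ones. It rose by a log2 fold change of 1.95 (adjusted p = 0.0057, edgeR), and Smad3, which carries its signal to the nucleus, rose by 1.52 (adjusted p = 0.00365). Prkaa2, which encodes a catalytic AMPK subunit, rose by 0.73 (adjusted p = 0.00394, edgeR). Prkaa1, the other catalytic subunit gene of the list, singled out after its value was seen, fell (log2 fold change -0.54, adjusted p = 0.00691, edgeR). Myog, a myogenic factor that activates Trim63 and Fbxo32 in denervated muscle, fell by 1.89 on the log2 scale (adjusted p = 0.00055, edgeR), and Runx1, another denervation-induced factor, fell by 1.57 (adjusted p = 0.0066). With total counts 4 rose and 12 fell, where 4.75% and 28.7% of all genes did.

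Among 19 genes for substrates and partners of the ligases, 5 rose and 4 fell (median log2 fold change 0.19), where 12.6% and 11.8% of all genes did. Myh4, the type IIb myosin, rose by 1.46 on the log2 scale (adjusted p = 0.0213, edgeR), and Mybpc2, the fast myosin-binding protein C and a MuRF1 substrate, by 1.30 (adjusted p = 0.0141). The other fast myosins of the list, singled out after their values were seen, fell, Myh1 (type IIx) by 0.93 (adjusted p = 0.0341, edgeR) and Myh2 (type IIa) by 1.23 (adjusted p = 0.0392). Ppp3ca, a calcineurin subunit gene, rose by 0.71 (adjusted p = 0.0154, edgeR). Actn2, the Z-disc α-actinin found in all fibre types, fell by 1.40 on the log2 scale (adjusted p = 0.00539, edgeR) and Mybpc1, the slow isoform of myosin-binding protein C, fell by 0.77 (adjusted p = 0.023). These counts changed when single libraries were left out, as did those over all genes. The 5 became 3, 0, 1 and 0 without library Ctrl 1, Ctrl 2, cKO 1 or cKO 3 and 8 without cKO 2. Of all genes, 5.33%, 6.06%, 6.2%, 5.34% and 12.3% rose in those fits, in that order. The 4 became 1 without Ctrl 1, Ctrl 2 or cKO 1, when 5.63%, 6.57% and 6.18% of all genes fell.

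**Figure D5:**
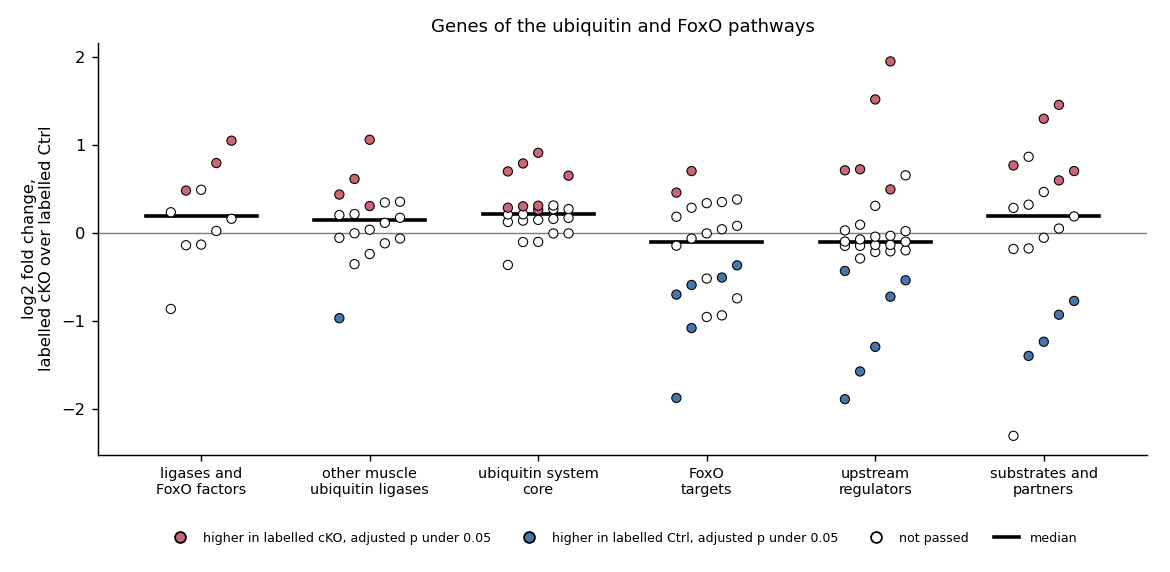
Log2 fold change of labelled cKO over labelled Ctrl for the 10 genes and the 5 lists, with 1 point for each gene, filled where the adjusted p was under 0.05, and a bar at the median. The ubiquitin system core had 8 rising and 0 falling genes of 23, and the FoxO targets 2 rising and 6 falling of 22. Of all genes tested, 12.6% rose and 11.8% fell.

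Likeness of pattern over the 6 libraries was measured by the root mean square difference of log2 CPM centred on each gene's mean. The genes most like 3 members were sought among those with a mean of at least 5 CPM. For Fbxo32 they were Klhl38 (difference 0.088 on the log2 scale), Skil (0.10) and Zbtb38 (0.11). Klhl38 had 59.5, 41.2 and 45.8 CPM in the Ctrl-labelled libraries (mice 1, 2 and 3) and 60.8, 68.0 and 76.2 CPM in the cKO-labelled ones, and like Fbxo32 it was lowest in Ctrl 2 and highest in cKO 3. For Trim63 they were Unc5a (0.20), A830082N09Rik (0.21) and Atp8a1 (0.21), a looser likeness. For Foxo1 they were Ccrn4l (0.13), Nfkbia (0.14) and Gnpda1 (0.17), and Nfkbia, an inhibitor of NF-kB, was highest in mouse 1 of both groups (66.2 CPM labelled Ctrl, 68.9 CPM labelled cKO) as Foxo1 was. These values describe 6 libraries that share their scaling, and no test was made on them.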

How the data were processed

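The authors used Trimmomatic 0.39 for trimming, HISAT2 2.1.0 for alignment to mm10 and featureCounts 1.6.2 for counting per gene, and deposited 1 table of counts, whole numbers without normalization, for each library. The annotation and the use of strand are not given in the sources used here. The test was that of edgeR 4.0.16 under R 4.3.3 (TMM, filterByExpr, estimateDisp, glmQLFit, glmQLFTest, Benjamini-Hochberg over 14180 genes), on 3 libraries labelled Ctrl and 3 labelled cKO, as separate mice. Standard errors were derived from the F statistic. The step was tested on simulated data. Alternatives were DESeq2 1.42.0, other scalings and filters, a robust fit, the mouse number as a block and each library left out. Replicates differed beyond counting error (chi-square per degree of freedom 31.3 to 107). Exon and coding lengths and positions came from GENCODE M21 on GRCm38, which is mm10, and promoters from RefSeq. Of 113 listed genes, 111 were tested.

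The genes and lists were chosen with earlier results of these data known. Named are the 10 genes, Net39, of each list up to 5 genes past the test with the smallest p, and for Trim63, Fbxo32 and Foxo1 the 3 genes of most similar pattern. Skp1a, Cul1, Prkaa1, Myh1 and Myh2 were named after their values were seen. An item that this rule names is not reported here. The labels of mouse number do not state a shared litter or day.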

Additional observations from a re-analysis of the deposited data

How the results depend on the processing

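Over 13 alternatives for each of the 10 genes, 109 of 130 values kept their direction and their side of the threshold, and Foxo4 and Net39 kept them in all 13. With total counts the genes higher in the cKO-labelled libraries went from 3 to 1 (with a fold change over 2, from 1 to 0). Those higher in the Ctrl-labelled ones went from 0 to 1 (with a fold change over 2, also from 0 to 1). The listed pathway genes went from 24 to 15 and from 17 to 32. The shares of all genes went from 12.6% to 4.75% and from 11.8% to 28.7%. The log2 fold changes of Fbxo21 (-0.017), Trim55 (-0.090) and Trim32 (-0.23) then reversed. The robust fit gave 0 genes over a fold of 2, and DESeq2 gave 1 gene (Fbxo30) higher in the Ctrl-labelled libraries. Leaving out single libraries gave 1 to 3 genes higher in the cKO-labelled libraries (0 to 1 over a fold of 2). It gave 0 to 1 in the Ctrl-labelled ones (0 to 1 over a fold of 2). The counts of listed pathway genes were 11 to 29 and 11 to 17. The shares of all genes were 5.33% to 12.3% and 5.46% to 12.5%. Trim32 reversed without Ctrl 1 (-0.028) and cKO 2 (-0.02), Foxo1 without Ctrl 1 (0.15) and cKO 2 (0.10, range -0.56 to 0.15), and the log2 ratio of Foxo1 to Foxo3 without Ctrl 1 (0.10), Ctrl 2 (0.03) and cKO 2 (0.14, range -0.22 to 0.14). Per coding length, the shares of Trim63 and Trim54 among the MuRF genes were 40.3% and 54.7% (labelled Ctrl) and 49.8% and 46.8% (labelled cKO), and those of Foxo1, Foxo3 and Foxo4 were 22.3%, 6.98% and 70.8%, and 13.3%, 4.23% and 82.5%. Except for the change of length or of samples, the cause of these shifts was not tested. With the mouse number as a replicate block, the listed pathway genes higher in the cKO-labelled libraries went from 24 to 14. The share of all genes went from 12.6% to 6.54%, and Trim54 had an adjusted p of 0.0539 (edgeR). Same-numbered libraries deviated together by r = 0.084, -0.21 and -0.0020, and libraries of unlike number by -0.22 to 0.19. These values cannot show whether the numbers carry a shared litter or day. Every gene of the 10 had at least 487 counts in each library, and the 95% interval of Foxo1 spanned -0.95 to 0.68.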
